A study of Rattus norvegicus with 30 samples.

Results

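The 38 genes described here code for ribosome biogenesis factors, the proteins that transcribe, modify, cut and fold ribosomal RNA and assemble it with ribosomal proteins. They were taken as a fixed list of gene names, which was chosen with earlier results of these data known. The counts of members called below are therefore a description and not an independent test of the list. Each gene was read from the probe set annotated to it alone that had the highest mean over the 30 arrays. A usable probe set existed for 37 of the 38, and all 37 passed the filter on low signal, among 10222 genes tested in all. Npm1 was dropped, because each of its probe sets is also annotated to a pseudogene.

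The arrays measured RNA from primary hepatocytes, the main parenchymal cells of the liver, isolated from male Sprague Dawley rats, bought frozen and kept on collagen under a Matrigel overlay. On day 3 of culture they were given methapyrilene HCl, an antihistamine that is toxic to rat liver, at 3 uM or 100 uM, or the vehicle alone, which the labels give as DMSO at 1%. RNA was taken after 24 h or 48 h, giving 6 groups of 5 wells, with 1 array per well and a DMSO group of its own at each time. The labels describe the dosing solutions as concentrated stocks in DMSO of that same share, so the DMSO share reached in the medium is uncertain. The wells are called independent cultures but no animals are named, so the errors and p-values below measure the spread between wells of what may be 1 batch of cells. Animal age is not given in the labels.

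Ribosomes are built mainly in the nucleolus. RNA polymerase I makes 1 long precursor, small nucleolar RNPs methylate and pseudouridylate it, the small subunit processome frees and folds the 18S part, and a separate chain of GTPases, helicases and scaffold proteins turns the rest into the large subunit. Liver cells raise these factors when they grow, and hepatocytes, which secrete most plasma proteins, depend on a large ribosome pool.

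The values are deposited array signals in arbitrary units, scaled by the submitters so that every array has nearly the same trimmed mean, between 1500.5 and 1500.7. A fall or rise in the RNA content of all cells alike would therefore not be seen, and in these bulk samples fewer cells of a type and less RNA per cell cannot be told apart. Of 10 hepatocyte markers, 9 were tested, none was at 0, and their summed signal ranged from 373123 to 555154 over the 30 arrays. It was 442873 to 541339 on DMSO and 431167 to 535720 at 100 uM after 24 h, and 405102 to 472441 and 383146 to 429860 after 48 h. Tat, Hnf4a and Fgb were called lower at 100 uM and 24 h (-0.66 ± 0.059, -0.37 ± 0.08 and -0.35 ± 0.086), and at 48 h Tat was lower (-0.41 ± 0.059) and Apoa2 higher (0.28 ± 0.07). The summed signal of the 5 of 10 Kupffer cell and leukocyte markers that passed the filter was 18789 to 22899 on the DMSO arrays and 15716 to 17172 on the 100 uM arrays at 24 h, and 18298 to 21331 and 12811 to 16299 at 48 h. Within that list Cd68, a lysosomal protein of macrophages, rose (0.86 ± 0.12 and 1.65 ± 0.12 on the log2 scale at 24 h and 48 h) while Cd14 fell (-0.68 ± 0.096 and -1.05 ± 0.096). Of these 5 markers, 1 was called higher and 2 lower at each time. Of all genes 19.8% and 18.9% were called higher at 24 h and 48 h, and 15.8% and 14.5% lower. The 5 of 10 stellate cell and fibroblast markers that passed summed to 2766 to 4451 over all arrays, and the 2 of 10 endothelial ones to 838 to 1340.3. At 100 uM, 0 of the 5 stellate cell and fibroblast markers were called at 24 h, and 1 was called higher at 48 h. Their log2 fold changes at 48 h ran from -0.17 to 0.58, with 3 of the 5 below 0. Of the 2 endothelial markers 0 were called at either time. The 3 of 8 cholangiocyte markers that passed summed to 10440.0 to 11445 on DMSO and 11578 to 12793 at 100 uM after 24 h. After 48 h they summed to 12712 to 14180.1 and 11621 to 12654, so the groups were apart at both times and in opposite directions. Of the 3, 1 was called higher and 0 lower at 24 h, where their log2 fold changes ran from -1.09 to 0.26. The summed signal therefore does not stand for each marker. Krt19 (-1.49 ± 0.44) and Epcam (-0.15 ± 0.057) were called lower at 48 h. The part of these marker changes in the results below was not tested. Replicates 1, 2 and 3 of the 3 uM group at 24 h had actin 3′ to 5′ signal ratios, a measure of RNA or cDNA integrity, of 3.93, 5.10 and 5.30, against 2.34 to 3.43 on the other 27 arrays, and the members' results at 3 uM and 24 h are given with and without them.

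Members with a promoter window in the RefSeq-derived table were scanned for 3 short motifs, because genes of this kind are known targets of Myc, which binds the E-box CACGTG. The table is on build GRCr8 and runs from 250 bases before to 50 bases after each annotated start; 33 of the 37 members had an entry, and Wdr43, Gnl2, Bop1 and Rrs1 did not. CACGTG occurred in 14 of the 33 windows (42.4%), against 9.83% of the 8598 windows of tested genes and 6.65% of all 27457 windows. Both strands were searched, and motifs that overlap were each counted. The ETS core CGGAAG was in 22 of 33 (66.7%), against 32.1% of the tested genes' windows, and TCGCGA was in 4 (12.1%), against 5.27%. The median GC content was 59.7% in the members' windows. These matches are a description of letters in a window, not of binding.

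The stretch from 60 bases before to 50 bases after the start is shown for 4 members whose RNA rose at both times at 100 uM and 2 whose RNA was not called at either time, with the E-box in capitals and all else in lower case, 5′ to 3′ on the gene's strand. They were picked to hold the motif, from members that were called and members that were not, and serve as an illustration only.
Utp4 (chr19:51702181-51702290, plus strand): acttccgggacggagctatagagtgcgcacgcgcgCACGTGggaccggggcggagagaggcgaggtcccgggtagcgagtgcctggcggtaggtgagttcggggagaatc
Gnl3 (chr16:6219733-6219842, minus strand): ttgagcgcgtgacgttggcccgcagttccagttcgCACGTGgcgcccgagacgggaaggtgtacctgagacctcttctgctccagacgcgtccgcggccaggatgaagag
Fbl (chr1:92597347-92597456, plus strand): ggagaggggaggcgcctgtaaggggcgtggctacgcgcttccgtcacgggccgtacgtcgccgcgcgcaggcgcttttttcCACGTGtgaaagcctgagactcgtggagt
Ebna1bp2 (chr5:137433474-137433583, plus strand): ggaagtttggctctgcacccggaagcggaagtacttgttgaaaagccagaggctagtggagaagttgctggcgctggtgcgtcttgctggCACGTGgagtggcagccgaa
Nop2 (chr4:159618906-159619015, plus strand): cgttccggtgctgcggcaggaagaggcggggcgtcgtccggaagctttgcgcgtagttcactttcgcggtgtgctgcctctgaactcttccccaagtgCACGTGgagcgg
Rrp1 (chr20:10260520-10260629, plus strand): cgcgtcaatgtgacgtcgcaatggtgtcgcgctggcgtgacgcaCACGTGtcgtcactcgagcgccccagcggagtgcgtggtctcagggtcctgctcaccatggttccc

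In Utp4 and Gnl3 the motif began 25 bases before the annotated start, in Rrp1 16 bases before it, and in Fbl, Ebna1bp2 and Nop2 21, 30 and 38 bases after it. Of the 25 members with a window that were called at 100 uM at either time, 8 (32%) held CACGTG, and of the 8 called at neither time 6 held it. The carriers that were called also include Mybbp1a, Lyar, Wdr75 and Tsr1, and those not called also include Dkc1, Utp18, Bysl and Pes1. Nop56, Nop58, Rrp9, Nhp2, Ncl and Wdr12, which rose at both times, have no CACGTG in this window.

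At 100 uM nearly the whole list was higher. After 24 h, 29 of the 37 members were called higher and 0 lower by limma over all 10222 genes (Benjamini-Hochberg adjusted p under 0.05), where 19.8% of all genes tested were called higher. All 37 fold changes were above 0, with a median log2 fold change of 0.38 (lowest 0.0080, highest 0.70), against a median of 0.043 over all genes. The median corresponds to 1.30-fold and the highest to 1.63-fold, so the rise was broad and small for each gene. In 25 members all 5 treated arrays lay above all 5 DMSO arrays, which held for 14.5% of all genes.

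After 48 h, 25 members were called higher and 0 lower, against 18.9% of all genes called higher. The 37 fold changes were again all above 0, with a median of 0.26 (0.0020 to 0.91; median of all genes 0.049). In 19 members the 5 treated arrays lay wholly above the 5 DMSO arrays, against 15.8% of all genes. Centring each array on its median, in place of the submitters' scaling, left 23 members called higher at 24 h (14.2% of all genes) and 16 at 48 h (12.2%). It moved the share of all calls that were higher from 55.6% to 47.5% at 24 h and from 56.6% to 44.6% at 48 h.

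**Figure D1:**
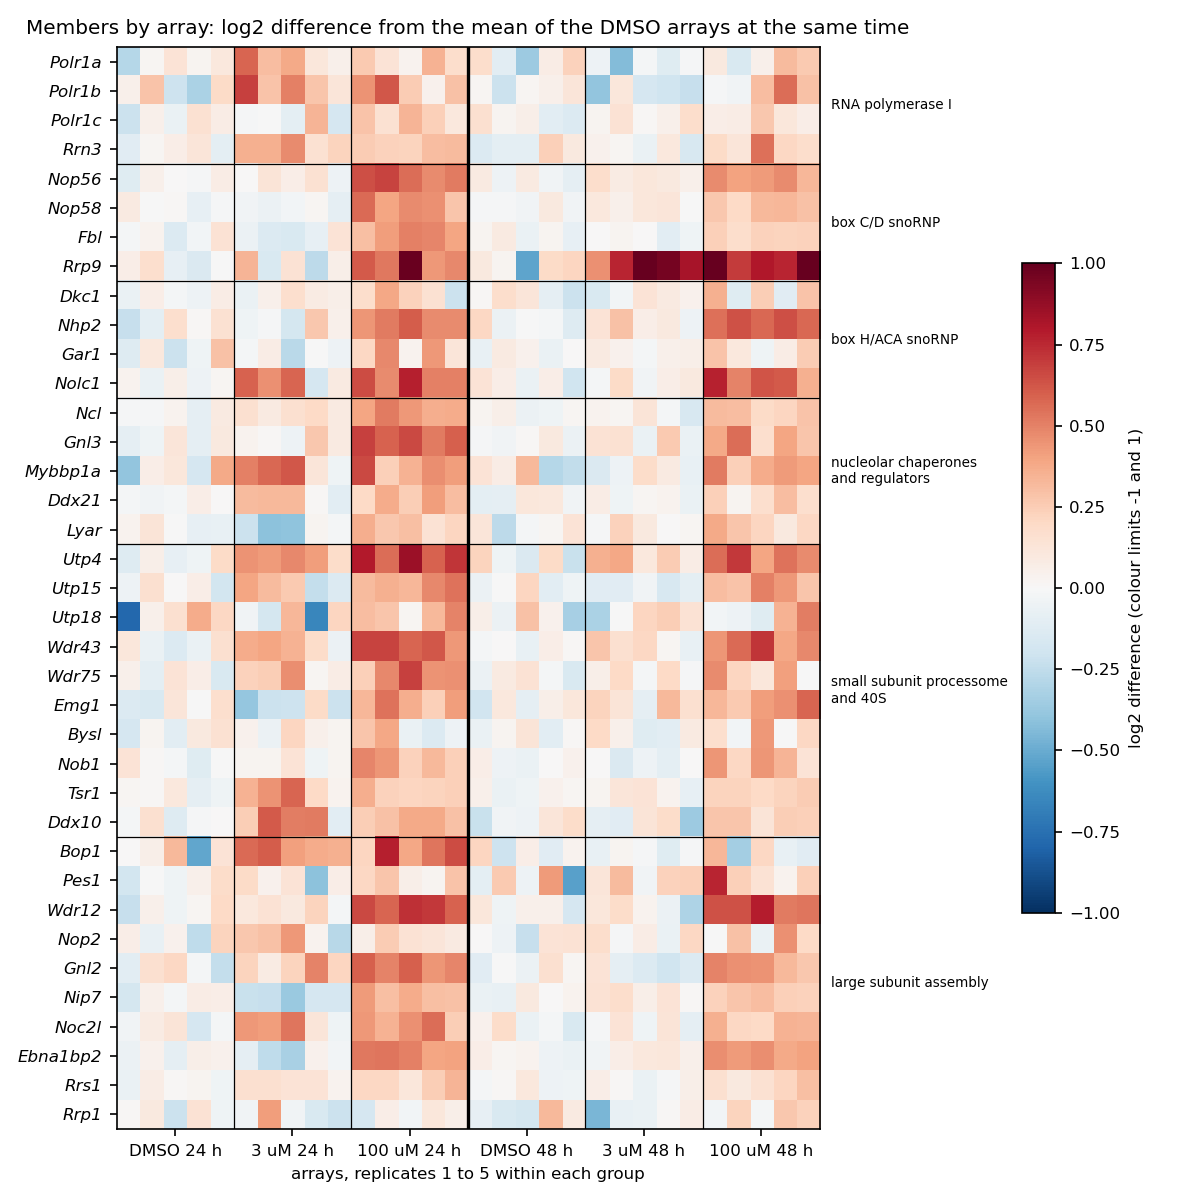
Colour map of 37 members (rows, grouped by role) over 30 arrays (columns, 5 replicates in each of 6 groups), showing the log2 difference from the mean of the DMSO arrays at the same time, with colours ending at -1 and 1. The columns at 100 uM are red across most rows at both times, while at 3 uM and 24 h replicates 1 to 3 differ from replicates 4 and 5.

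The 2 times used separate DMSO wells. All 25 members called at 48 h were also called at 24 h (86.2% of the 29, 100% of the 25), where of all genes called higher 1353 were shared (66.7% of those at 24 h, 70.0% of those at 48 h). Polr1c, Gar1, Ddx10 and Bop1 were called at 24 h and not at 48 h, and Polr1a, Polr1b, Dkc1, Utp18, Bysl, Pes1, Nop2 and Rrp1 at neither time. In 30 of 37 members the fold change was larger at 24 h, yet limma called the change of the 100 uM effect between the times for 0 members. Of all genes 1.65% were called in either direction. An unadjusted limma p under 0.05 was found for 5 of the 37 members and for 1155 of all 10222 genes. Over the 37 members the fold changes at the 2 times had a correlation of 0.72, and over all genes 0.75, given as a description of genes on the same arrays.

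**Figure D2:**
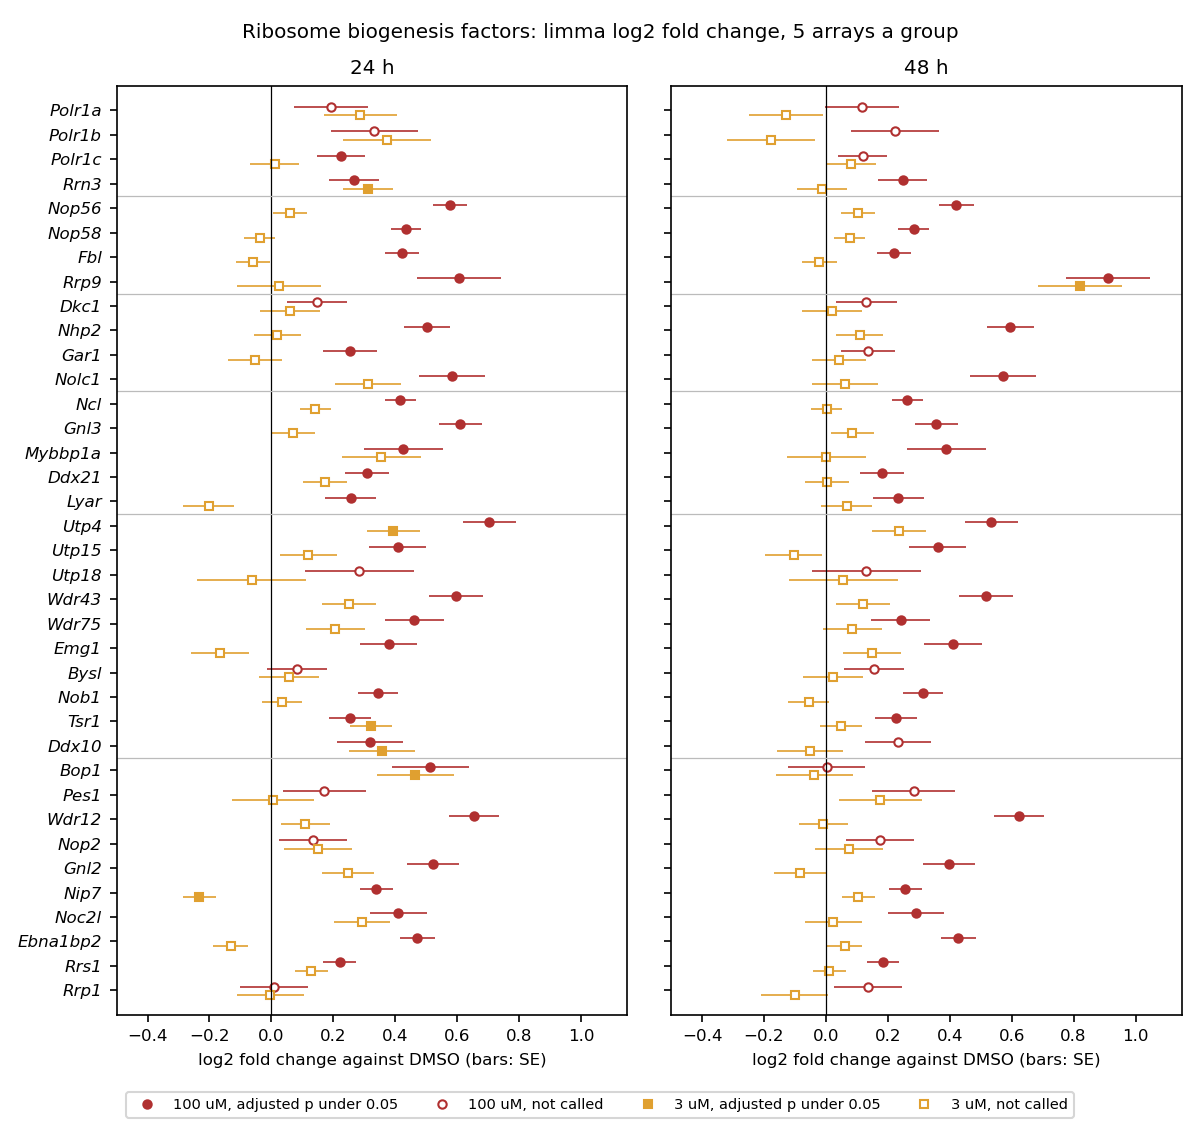
Log2 fold change against DMSO (horizontal axis, bars SE from limma, 5 arrays a group) of the 37 members at 24 h and 48 h, with 100 uM as red circles and 3 uM as orange squares; filled symbols have an adjusted p under 0.05. All red points lie at or to the right of 0, and 29 are filled at 24 h and 25 at 48 h.

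The counts by role from here on stand beside the 19.8% and 18.9% of all genes called higher at 24 h and 48 h. Among the 4 RNA polymerase I members, 2 were called higher at 24 h and 1 at 48 h, with medians of 0.25 and 0.17. The 1 of 4 at 48 h (25%) was near the share of all genes. Rrn3, the initiation factor that brings polymerase I to the ribosomal DNA promoter, gave signals of 2791, 3053, 3157, 3279 and 2816 on the DMSO arrays at 24 h and 3596, 3533, 3525, 3724 and 3754 at 100 uM. Every treated well was above every DMSO well. The log2 fold change was 0.27 ± 0.08 (SE, n = 5 and 5; limma adjusted p = 0.00836). At 48 h its signals were 2677, 2745, 2741, 3470.4 and 3139.6 against 3349, 3191, 4303, 3389 and 3325, and the groups overlapped, with replicate 3 well above the other treated wells. There the log2 fold change was 0.25 ± 0.08 (limma adjusted p = 0.015), and the call was lost without that replicate (0.17, adjusted p = 0.0856) or without DMSO replicate 1 (0.21, adjusted p = 0.0511). A second Rrn3 probe set gave 0.26 at 24 h and 0.46 at 48 h (adjusted p = 0.0194 and 7.62e-05 over all probe sets).

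Polr1c, a subunit shared with RNA polymerase III, had signals of 3678, 4418, 4061, 4745 and 4474 on DMSO and 5181, 4742, 5403, 5014 and 4585 at 100 uM after 24 h. The 2 groups overlapped, with 3 treated wells above the highest DMSO well. Its log2 fold change was 0.22 ± 0.079 (limma adjusted p = 0.0244), which did not hold without DMSO replicate 1 (adjusted p = 0.101) or 3 (0.0559) or without 100 uM replicate 1 (0.0543) or 3 (0.0720). At 48 h it was 0.12 ± 0.079 and not called, from signals of 5081, 4654, 4744, 4238 and 4139 and 4775, 4792, 5504, 4928 and 4778.

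Polr1b, the second largest subunit, had the lowest signal percentile of the members, above 25.7% of all genes, and the widest scatter of this role. Its signals were 682, 805, 572, 528 and 753 on DMSO and 903, 1016, 785, 679 and 809 at 100 uM after 24 h, overlapping, with a log2 fold change of 0.33 ± 0.14 that was not called (limma adjusted p = 0.0662). At 48 h they were 706, 599.6, 705, 719 and 756 against 690.5, 677, 862, 1023 and 849.7 (log2 fold change 0.22 ± 0.14, not called). Polr1a, the largest and catalytic subunit, was not called either, at 0.19 ± 0.12 and 0.12 ± 0.12.

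All 4 box C/D members, parts of the RNPs that guide 2′-O-methylation of ribosomal RNA, were called higher at both times, with medians of 0.50 at 24 h and 0.35 at 48 h. Nop56, a core scaffold protein of these particles, gave signals of 4525, 5118, 4953, 4896 and 5177 on DMSO and 7723, 7872, 7277, 6845 and 7055 at 100 uM after 24 h. After 48 h the signals were 4809, 4353, 4799, 4399 and 4256 and 6285, 5958, 6078, 6279 and 5676. The treated and control wells did not overlap at either time. On the log2 scale Nop56 rose by 0.58 ± 0.055 (limma adjusted p = 2.93e-10) and 0.42 ± 0.055 (1.87e-07). A second Nop56 probe set gave 0.51 at 24 h (adjusted p = 0.0382 over all probe sets) and 0.28 at 48 h, where it was not called.

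Nop58, the partner of Nop56 in the same core, had signals of 11978, 11208, 11295, 10583 and 11117 on DMSO against 16671, 14785, 15586, 15400.1 and 13589 at 100 uM after 24 h. After 48 h they were 10138, 10162, 9956, 10931 and 9950.0 against 12349.7, 11718, 12769, 12863 and 12518. The groups were apart at both times, by a wider gap at 24 h. Log2 fold changes were 0.43 ± 0.05 and 0.28 ± 0.05 (limma adjusted p = 1.34e-08 and 2.62e-05).

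Fbl, fibrillarin, the methyltransferase of the particle, went from 8699.9, 8998, 8017, 8627 and 9745 on DMSO to 10861, 11756, 12470.2, 12321 and 11569.9 at 100 uM after 24 h. At 48 h its signals were 9844, 10307, 9243, 9846 and 9128 and 11405, 10922, 11322, 11293 and 11319. Again no treated well fell within the range of the controls. The log2 fold change was 0.42 ± 0.056 at 24 h and 0.22 ± 0.056 at 48 h (limma adjusted p = 2.28e-07 and 0.0022); centring the arrays on their medians ended the call at 48 h.

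Rrp9, a protein specific to the U3 snoRNP that starts cutting of the precursor, is given in full because of its values at 3 uM, a choice made after they were seen. At 24 h it gave 1437, 1543, 1299, 1246 and 1373 on DMSO, 1738, 1235, 1524, 1148 and 1431 at 3 uM and 2104, 1979, 2722, 1855 and 1915 at 100 uM. At 48 h it gave 1103, 1051, 715, 1174 and 1194, 1416, 1746, 2207, 2003 and 1824 and 2228, 1669.9, 1793, 1749 and 2346. At 24 h the 3 uM wells lay among the controls and the 100 uM wells above them, while at 48 h the wells of both doses lay above every control. At 100 uM its log2 fold changes were 0.61 ± 0.14 and 0.91 ± 0.14 (limma adjusted p = 0.000596 and 2.15e-06), the second the highest of the 37 members.

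Of the 4 H/ACA members, whose particles guide pseudouridylation, 3 were called at 24 h and 2 at 48 h, with medians of 0.38 and 0.35. Nhp2, a core protein, had signals of 8737, 9556, 11464, 10303 and 11362 on DMSO and 13861, 14688, 15577, 14214 and 14166 at 100 uM after 24 h. After 48 h they were 9867, 8222, 8552, 8471 and 7837 and 12552, 13316, 12741, 13390.0 and 12748. The treated wells were higher than all controls at both times. The log2 fold changes were 0.50 ± 0.075 and 0.60 ± 0.075 (limma adjusted p = 2.07e-06 and 1.04e-07).

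Nolc1, a nucleolar phosphoprotein that carries snoRNPs, gave 1876, 1743, 1905, 1762 and 1855 on DMSO and 2874, 2539, 3129.6, 2597 and 2591 at 100 uM after 24 h, and 1699.6, 1618, 1472, 1613 and 1342 against 2628, 2179, 2386, 2358 and 1979 after 48 h. The groups did not overlap. Its log2 fold changes were 0.58 ± 0.11 and 0.57 ± 0.11 (limma adjusted p = 4.36e-05 and 5.97e-05). The probe sets of Nolc1 disagreed: another that passed the filter gave 0.20 and -0.15, and a further one 0.33 and 0.43, none called. With the mean of the probe sets the call at 48 h was lost (adjusted p = 0.0686).

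Gar1, another core protein, gave 2726, 3207, 2566, 2896 and 3651 on DMSO and 3444, 4165, 3059, 4027 and 3242 at 100 uM after 24 h. The groups overlapped, with 2 treated wells above all controls. The log2 fold change of 0.25 ± 0.087 (limma adjusted p = 0.0213) lost its call without DMSO replicate 1 (adjusted p = 0.0650) or 3 (0.0841) or without 100 uM replicate 2 (0.0889) or 4 (0.0760). At 48 h it was 0.14 ± 0.087, not called. Dkc1, the pseudouridine synthase itself, was not called at either time, at 0.15 ± 0.097 and 0.13 ± 0.097.

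**Figure D3:**
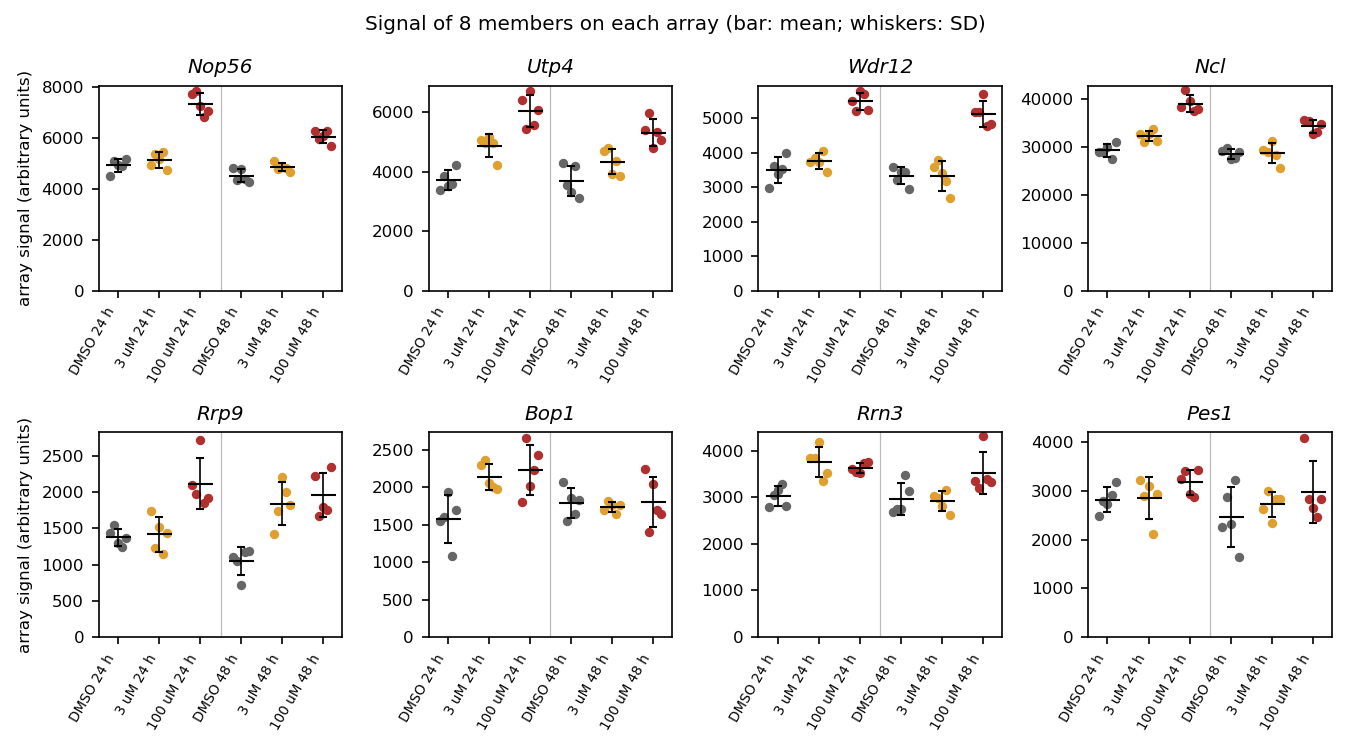
Deposited signal (arbitrary units, axis from 0) of Nop56, Utp4, Wdr12, Ncl, Rrp9, Bop1, Rrn3 and Pes1 on each of the 5 arrays of the 6 groups, with the mean as a bar and the SD as whiskers. Nop56, Utp4, Wdr12 and Ncl are above DMSO at 100 uM at both times, Bop1 at 24 h and not 48 h, and Rrp9 at 3 uM at 48 h as well.

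The 5 nucleolar chaperones and regulators were all called higher at both times, with medians of 0.42 and 0.26. Gnl3, nucleostemin, a nucleolar GTPase, gave 6556, 6800.2, 7617, 6572 and 7482 on DMSO and 11246, 10497, 11049, 10042 and 10567 at 100 uM after 24 h. After 48 h it gave 7249, 7132, 7394, 7818 and 7017 and 9531, 10794, 8242, 9616 and 8850.1. No overlap was seen at either time, though the lowest treated well at 48 h came close to the highest control. The log2 fold changes were 0.61 ± 0.07 and 0.36 ± 0.07 (limma adjusted p = 1.54e-08 and 0.000129).

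Ncl, nucleolin, an abundant RNA-binding protein of the nucleolus, stood above 97.4% of all genes in signal. Its wells read 28895, 28966, 29904, 27386 and 31006 on DMSO and 38385, 41859, 39515, 37558 and 37772 at 100 uM after 24 h, and 29114, 29719.7, 27344, 27641 and 28954 against 35561, 35286, 32591, 33085 and 34817 after 48 h. Treated and control wells were apart at both times, with log2 fold changes of 0.42 ± 0.05 and 0.26 ± 0.05 (limma adjusted p = 3.44e-08 and 7.91e-05).

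Ddx21, an RNA helicase that acts on ribosomal RNA and at its transcription, read 7142, 7056, 7159, 7588 and 7257 on DMSO and 8299.6, 9372, 8581, 9694 and 8973 at 100 uM after 24 h, without overlap (0.31 ± 0.071, limma adjusted p = 0.000769). After 48 h it read 6455, 6488, 7458, 7448 and 6751 and 8156, 7019, 7755, 8533 and 7767, with 1 treated well inside the control range. The call there (0.18 ± 0.071, adjusted p = 0.048) was lost on leaving out DMSO replicate 1, 2 or 5 or 100 uM replicate 1, 3, 4 or 5 (adjusted p from 0.0675 to 0.136). A second Ddx21 probe set gave the opposite order, 0.14 at 24 h (not called) and 0.30 at 48 h (adjusted p = 0.00828 over all probe sets).

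Mybbp1a, a nucleolar protein known as a repressor of polymerase I transcription, was called at 0.43 ± 0.13 and 0.39 ± 0.13 (limma adjusted p = 0.00836 and 0.0169), with groups that overlapped at both times. The second call was lost without DMSO replicate 4 (adjusted p = 0.0675) or 5 (0.0617). Lyar, a nucleolar factor linked to growth, was called at 0.26 ± 0.083 and 0.23 ± 0.083 (adjusted p = 0.0143 and 0.0265). Its call at 48 h was lost without DMSO replicate 2 (adjusted p = 0.119) or 100 uM replicate 1 (0.0833) or 2 (0.0536).

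Of the 10 small subunit members, 8 were called at 24 h and 7 at 48 h, with medians of 0.36 and 0.28. Utp4, a component of the UtpA complex that first binds the nascent precursor, had the highest fold change of the 37 at 24 h. Its signals were 3379, 3854, 3499.8, 3594 and 4222 on DMSO and 6401, 5447, 6698, 5579.8 and 6075 at 100 uM after 24 h. After 48 h they were 4278, 3545, 3307, 4179 and 3129 and 5385, 5980.3, 4801, 5327 and 5067. Treated wells exceeded every control at both times. The log2 fold changes were 0.70 ± 0.086, or 1.63-fold, and 0.53 ± 0.086 (limma adjusted p = 5.11e-08 and 7.38e-06).

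Wdr43, another UtpA protein, read 1722, 1525, 1452, 1523 and 1784 on DMSO and 2548, 2556, 2387, 2449 and 2153 at 100 uM after 24 h, and 1480.5, 1505, 1426, 1573 and 1514 and 2041, 2220.4, 2457, 1955 and 2093 after 48 h. The groups were apart at both times (0.60 ± 0.087 and 0.52 ± 0.087, limma adjusted p = 1.31e-06 and 1.4e-05). Its second probe set gave 0.14 and 0.11 and was not called at either time, so the size of the Wdr43 change differed between the sequences probed.

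Nob1, the endonuclease that makes the final cut at the 3′ end of 18S rRNA, read 3551, 3258, 3194, 2982 and 3221 on DMSO and 4535, 4386, 3803, 4046 and 3821 at 100 uM after 24 h. After 48 h it read 3507, 3244, 3205, 3357 and 3461 and 4556, 3877, 4545, 4249 and 3687. Neither time showed overlap. Its log2 fold changes were 0.34 ± 0.065 and 0.31 ± 0.065 (limma adjusted p = 6.99e-05 and 0.000245).

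Utp15, also of UtpA, was called at 0.41 ± 0.091 and 0.36 ± 0.091, and Emg1, a methyltransferase of 18S rRNA, at 0.38 ± 0.093 and 0.41 ± 0.093, both without overlap of wells at either time. Tsr1, which acts late in 40S maturation, was called at 0.25 ± 0.067 and 0.23 ± 0.067, also with no overlap. Wdr75, a further UtpA member, was called at 0.46 ± 0.095 and 0.24 ± 0.095. The second Wdr75 call (limma adjusted p = 0.048) was lost without DMSO replicate 1, 4 or 5 or 100 uM replicate 1, 2 or 4 (adjusted p from 0.0646 to 0.162). Another Wdr75 probe set gave 0.49 and 0.37 and was not called at either time (limma adjusted p = 0.0655 and 0.185 over all probe sets). Another Utp15 probe set gave 0.34 at 24 h (0.00559) and 0.23 at 48 h (0.0758, not called). The helicase Ddx10 was called at 24 h alone (0.32 ± 0.11, adjusted p = 0.0177; 48 h 0.23 ± 0.11, adjusted p = 0.0929). Utp18 of the UtpB complex (0.28 ± 0.18 and 0.13 ± 0.18) and Bysl, a 40S assembly factor (0.081 ± 0.097 and 0.15 ± 0.097), were not called. Utp18 had the largest standard error of the 37 members.

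Of the 10 large subunit members, 7 were called at 24 h and 6 at 48 h, with medians of 0.37 and 0.27. Ebna1bp2, an early pre-60S factor, read 9592, 10293, 9429.9, 10445 and 10341 on DMSO and 14432, 14479.7, 14213, 13130.1 and 13211 at 100 uM after 24 h. After 48 h it read 9993, 9667, 9801, 9209.8 and 9132 and 13172, 12851, 13172, 12445 and 12607. A wide gap separated the groups at both times (0.47 ± 0.057 and 0.43 ± 0.057, limma adjusted p = 3.62e-08 and 2.59e-07).

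Nip7, a factor needed for 60S maturation, read 7691, 8989, 8579, 9149 and 9099 on DMSO and 11678, 10671, 11229, 10719 and 10634 at 100 uM after 24 h, and 8397, 8315, 9392, 8808 and 9003 and 10302, 10617, 10880.2, 10349 and 10275 after 48 h. All treated wells were above all controls (0.34 ± 0.053 and 0.26 ± 0.053, limma adjusted p = 4.18e-06 and 0.000239). Gnl2, a GTPase of pre-60S export, was called at 0.52 ± 0.084 and 0.40 ± 0.084, and Noc2l, a nucleolar protein that also inhibits histone acetylation, at 0.41 ± 0.091 and 0.29 ± 0.091. Rrs1, which helps bring the 5S RNP into the large subunit, was called at 0.22 ± 0.053 and 0.18 ± 0.053, among the smallest called changes. Nop2, a methyltransferase of 28S rRNA (0.13 ± 0.11 and 0.17 ± 0.11), and Rrp1 (0.008 ± 0.11 and 0.14 ± 0.11) were not called.

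Wdr12, Bop1 and Pes1 form 1 stable complex, PeBoW, that is needed to process the large subunit RNA, and their RNAs gave different results; Bop1 and Pes1 were chosen for full values after these were seen. Wdr12 read 2969, 3602, 3387, 3533 and 4004 on DMSO and 5491, 5217, 5781, 5693 and 5252 at 100 uM after 24 h, and 3601, 3219.8, 3437, 3433 and 2961 and 5177, 5176, 5717, 4762 and 4821 after 48 h. Its groups were apart at both times (0.65 ± 0.08 and 0.62 ± 0.08, limma adjusted p = 4.48e-08 and 1.27e-07). Bop1 read 1551, 1612, 1943, 1078 and 1702 on DMSO and 1801, 2655, 2022, 2239 and 2434 at 100 uM after 24 h, with 4 of 5 treated wells above every control (0.51 ± 0.12, adjusted p = 0.00132). After 48 h Bop1 read 2070.1, 1547, 1864, 1649 and 1826 and 2246, 1406, 2052, 1695 and 1648, overlapping (0.002 ± 0.12, adjusted p = 0.993). The difference between the 2 times, -0.51 ± 0.18, was not called (limma adjusted p = 0.189). Pes1 read 2481, 2798, 2734, 2909.7 and 3186 on DMSO and 3239.5, 3404, 2936, 2868 and 3430.1 at 100 uM after 24 h, and 2251, 2878, 2321, 3228 and 1648 and 4075, 2832, 2652, 2463 and 2830.2 after 48 h. Those wells overlapped at both times, and the log2 fold changes of 0.17 ± 0.13 and 0.28 ± 0.13 were not called (adjusted p = 0.35 and 0.105).

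Read array by array, the median member stood above its DMSO level on every array at 100 uM. The median over the 37 members of the log2 difference from the DMSO mean was 0.34 to 0.40 on the 5 arrays at 100 uM and 24 h, and 0.24 to 0.33 at 48 h. On the DMSO arrays themselves it ranged from -0.062 to 0.071. The same median over all genes did not pass 0.066 on any array. On each array at 100 uM, 35 to 37 of the members were above their DMSO mean at 24 h, and 31 to 35 at 48 h.

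**Figure D4:**
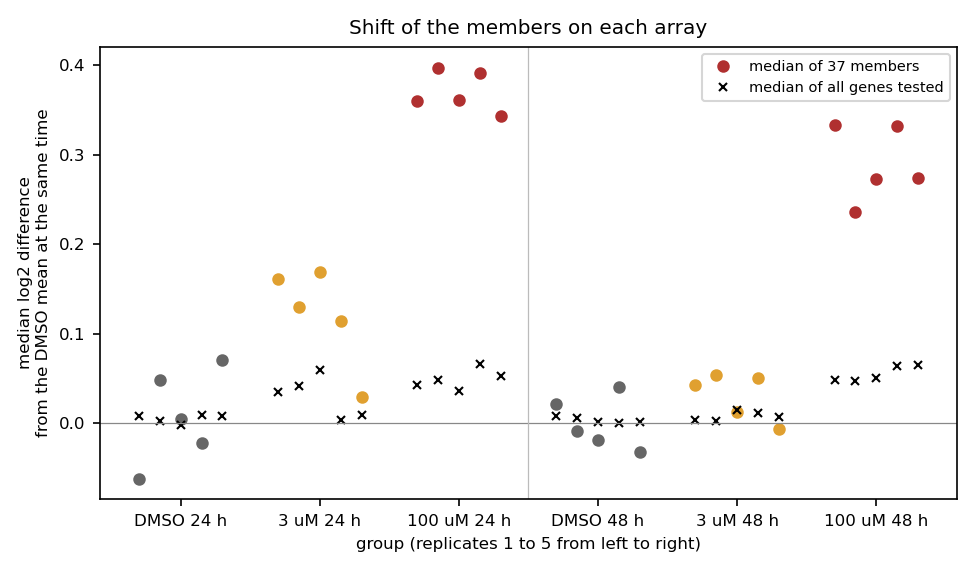
Median over 37 members (filled points) and over all 10222 genes (crosses) of the log2 difference from the mean of the DMSO arrays at the same time, for each of the 30 arrays. The 10 arrays at 100 uM lie between 0.24 and 0.40, above every DMSO and 3 uM array, while the crosses stay near 0.

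The members were correlated over the 30 arrays with a median pairwise r of 0.45 (633 of 666 pairs positive). After each group's mean was taken away, the median r was 0.080 (-0.59 to 0.67), with 406 of 666 pairs positive. Neither value was computed for other genes. All pairs share the same arrays, scaling and doses.

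At 3 uM the changes were fewer and depended on the arrays used. At 24 h, 5 members were called higher (Rrn3, Utp4, Tsr1, Ddx10 and Bop1), against 2.99% of all genes, and 1 lower (Nip7), against 1.22% of all genes, with a median of 0.11 over the members and 0.014 over all genes. In 3 members (Rrn3, Ncl and Bop1) all 5 wells at 3 uM lay above all 5 controls, against 1.36% of all genes. Of all calls in this comparison 71.0% were higher, and 90.7% with arrays centred on their medians or 61.1% after quantile normalization.

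Utp4 read 5053, 4969.7, 5169.7, 4952 and 4208 at 3 uM and 24 h (0.39 ± 0.086, limma adjusted p = 0.0113), between its DMSO and 100 uM wells apart from replicate 5, which lay in the control range. Rrn3 read 3845, 3849, 4190.3, 3353 and 3519, and its rise of 0.31 ± 0.08 (adjusted p = 0.0251) was as large as that at 100 uM, 0.27. Tsr1 read 6266, 6204, 6633, 5785 and 5991 on DMSO, 7856, 8445, 9218, 7065 and 6328 at 3 uM and 7928, 7232, 7165, 7193 and 7297 at 100 uM. The 3 uM wells of Tsr1 spread far more widely than those of the other groups, from inside the control range to above every 100 uM well (0.32 ± 0.067, adjusted p = 0.00808).

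Ddx10 read 1661, 1879.9, 1536, 1675 and 1687 on DMSO, 1993, 2583, 2401, 2416 and 1562 at 3 uM and 1998, 2060.5, 2194, 2189 and 2067 at 100 uM (0.36 ± 0.11 at 3 uM, limma adjusted p = 0.0482). Bop1 read 2294, 2362, 2062, 2008 and 1985 at 3 uM (0.46 ± 0.12, adjusted p = 0.0307), with all 5 wells above its controls. Nip7 went the other way, at 7426, 7409, 6705, 7732 and 7729 at 3 uM (-0.23 ± 0.053, adjusted p = 0.0145), with 3 wells below every control, although it rose at 100 uM. Ncl, at 32574, 31076, 32688, 33615 and 31144, was above its controls in all wells and not called (0.14 ± 0.05, adjusted p = 0.0918).

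Replicates 1, 2 and 3, those with the high actin ratio, carried much of this. The median member difference from DMSO was 0.12 over those 3 arrays and 0.040 over replicates 4 and 5, against 0.041 and 0.0033 for all genes. Nolc1 was at 0.54 on the former and -0.038 on the latter, Mybbp1a at 0.57 and 0.040, and Lyar at -0.34 and 0.0048. Over replicates 4 and 5 the 5 members called higher were at 0.19 (Rrn3), 0.30 (Utp4), 0.12 (Tsr1), 0.21 (Ddx10) and 0.37 (Bop1), and Nip7 was at -0.17. With replicates 4 and 5 alone, or with the actin ratio as a covariate, limma called 0 members in either direction. Over all 10222 genes these fits also called 0 higher, and 4 and 1 lower, so the loss of calls was not particular to the members. In the same fits 6 and 8 members had an unadjusted p under 0.05 by limma. The matching counts over all genes were not computed, so these 2 counts have no background to be read against. Leaving out 1 array at a time gave 0 to 13 members called higher and 0 to 4 lower, the 0 in both directions without 3 uM replicate 3 and the 13 without 3 uM replicate 5. Without replicate 3, 0.313% of all genes were called higher, and without replicate 5, 9.23%. How far the actin ratio sets these values beyond that was not tested.

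At 48 h and 3 uM, Rrp9 was the only member called, against 0.0196% of all genes called higher, which is 2 genes. Its log2 fold change was 0.82 ± 0.14 (limma adjusted p = 0.00488), as large as at 100 uM, and its difference between 100 uM and 3 uM at 48 h was 0.092 ± 0.14, not called. The call held on leaving out any 1 array and was lost in a fit to the 2 groups alone (adjusted p = 0.0705). The change of the 3 uM effect of Rrp9 between 24 h and 48 h was 0.79 ± 0.19 and not called (adjusted p = 0.241), and with replicates 4 and 5 alone at 24 h it was 0.92 (adjusted p = 0.438). The median over members was 0.043, and 0.675% of all genes had all 5 wells at 3 uM above all 5 controls.

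Set directly against 3 uM, 100 uM gave 21 members higher and 0 lower at 24 h (19.8% of all genes called higher) and 23 higher and 0 lower at 48 h (16.2%). With replicates 4 and 5 alone at 3 uM and 24 h, 20 members were higher (14.6% of all genes) and 0 lower, and with the actin ratio as a covariate 19 (12.5%) and 0. With arrays centred on their medians the share of all calls at 24 h that were higher moved from 50.9% to 34.5%. The members called higher at 48 h then fell to 12, where 11.2% of all genes were called higher. Group means stood in the order DMSO, 3 uM, 100 uM in 22 members at 24 h and 26 at 48 h. The 100 uM mean was the highest in 31 members at 24 h and in 37 at 48 h. In the other 6 at 24 h, Polr1a, Polr1b, Rrn3, Tsr1, Ddx10 and Nop2, the 3 uM mean was the highest, and for none of them was the difference between the doses called. With replicates 4 and 5 alone the order DMSO, 3 uM, 100 uM held in 24 members at 24 h, and the 100 uM mean was the highest in all 37 tested.

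Between the DMSO wells at 48 h and 24 h, 2 members were called lower and 0 higher, against 1.91% of all genes called lower. Rrs1 fell by 0.23 on the log2 scale (SE 0.053, limma adjusted p = 0.00581), from 4009, 4428, 4234, 4270.2 and 4072 to 3523, 3613, 3837, 3452 and 3467, with no overlap. Nhp2 fell by 0.26 (adjusted p = 0.0432), with overlap. The Nhp2 call was lost without DMSO 24 h replicate 3, 4 or 5 or DMSO 48 h replicate 2, 3, 4 or 5 (adjusted p from 0.0775 to 0.146). In 3 members, Rrs1, Rrp9 and Nolc1, all 5 wells at 48 h lay below all 5 at 24 h, against 3.07% of all genes. Rrp9 had the largest difference of these, -0.42 ± 0.14, from 1437, 1543, 1299, 1246 and 1373 to 1103, 1051, 715, 1174 and 1194, and was not called (adjusted p = 0.0792), and its 3 uM and 100 uM values at 48 h are set against these lower controls.

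Other genes of the same pathway were listed apart from the members, and at 100 uM are read against the 19.8% and 18.9% of all genes called higher at 24 h and 48 h and the 15.8% and 14.5% called lower. Of 41 other small subunit factors, 25 were called higher and 2 lower at 24 h, and 19 and 1 at 48 h (medians 0.32 and 0.28). Pno1, a partner of Nob1 in 40S maturation, was at 0.46 ± 0.062 and Imp4, a U3 snoRNP protein, at 0.54 ± 0.073 at 24 h, while Rcl1 was lower at both times (-0.53 ± 0.066 and -0.50 ± 0.066). Of 42 other 60S factors, 21 were called higher at 24 h and 22 at 48 h, with 0 lower (medians 0.32 at both times). Mrto4, which prepares the ribosomal stalk, was at 0.58 ± 0.068 and 0.63 ± 0.068, and Sdad1 at 0.90 ± 0.11 at 48 h.

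Of 17 other polymerase I genes 9 were called higher at 24 h, and 6 higher and 1 lower at 48 h (medians 0.23 and 0.21). Taf1d of the selectivity factor was at 0.56 ± 0.08 and 0.57 ± 0.08, and the lower one was Ubtf, the upstream binding factor, at -0.35 ± 0.11. Of 10 further snoRNP and assembly genes 7 and 4 were called higher, and of 11 exosome genes 5 at each time, with Exosc5 lower at 48 h (-0.22 ± 0.081). Cytosolic ribosomal protein genes code for the proteins that end up in the ribosome itself. Of 41 tested, 6 (14.6%) were called higher at 24 h and 7 (17.1%) at 48 h, near the shares of all genes, and 0 lower. Their medians were 0.11 and 0.075, against 0.043 and 0.049 over all genes. Fold changes were above 0 in 37 and 36 of them, against 55.8% and 56.8% of all genes. All 5 treated arrays lay above all 5 DMSO arrays in 2 at 24 h and 12 at 48 h, against 14.5% and 15.8% of all genes. Only 41 of the 79 listed had a probe set of their own past the filter. With 3 uM in place of DMSO, 29 of the 41 (70.7%) were called higher at 100 uM and 24 h, a larger share than of the members (56.8%). At 48 h 4 (9.76%) were called higher, against 62.2% of the members. Of all genes 19.8% and 16.2% were called higher in these comparisons. The 3 uM group at 24 h holds the 3 arrays with a high actin ratio, whose part was not tested.

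In the Myc network list 0 of 9 genes were called higher at either time and 3 and 2 lower, against 15.8% and 14.5% of all genes called lower, Mxd4 and Mycl at both times (-0.59 ± 0.16 and -0.59 ± 0.23 at 24 h) and Mxi1 at 24 h (-0.32 ± 0.094). Mxd4 and Mxi1 are partners of Max that oppose Myc. Myc itself, named after its values were seen, was at 0.21 ± 0.097 and -0.097 ± 0.097 and not called (limma adjusted p = 0.0868 and 0.488). The list medians are descriptions, and differences between the lists were not tested.

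**Figure D5:**
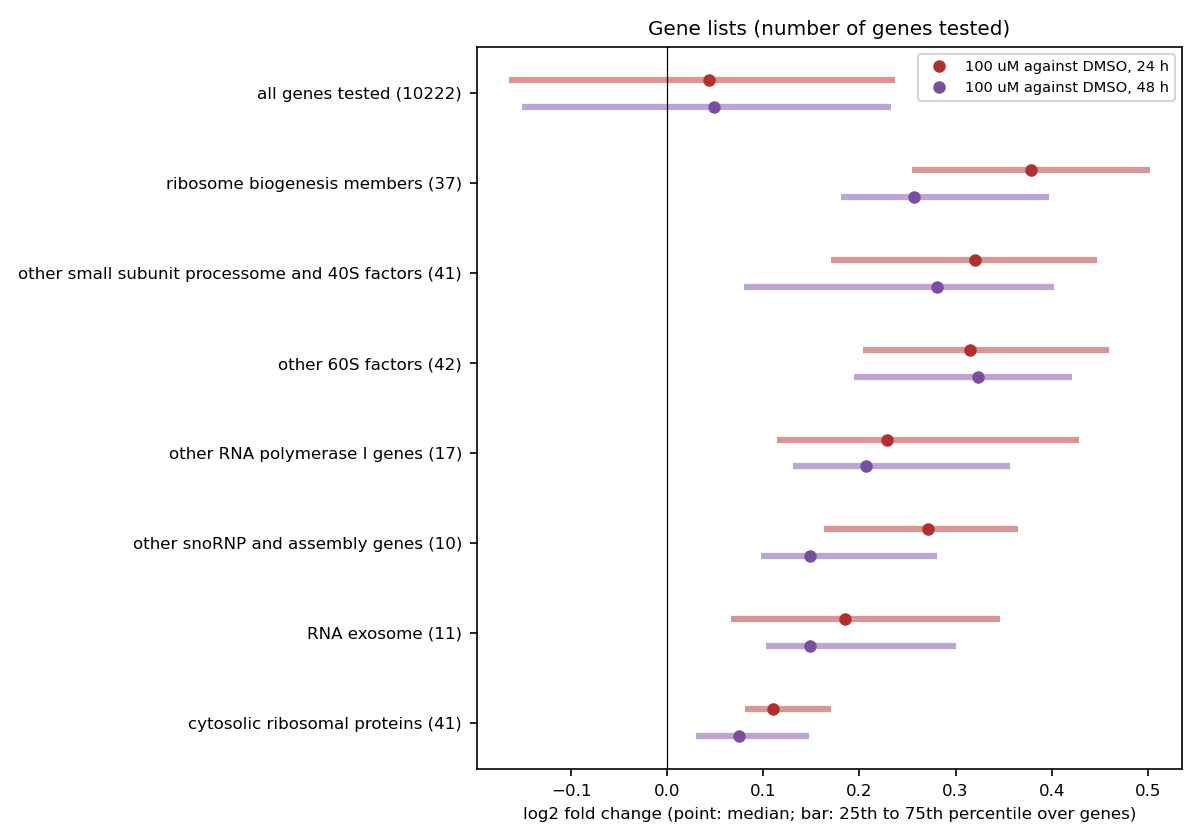
Median (point) and 25th to 75th percentile over genes (bar) of the log2 fold change of 100 uM against DMSO at 24 h and 48 h, for all genes tested, the 37 members and 6 other gene lists with the number tested in brackets. Members and assembly factor lists have medians of 0.15 to 0.38, ribosomal proteins 0.11 and 0.075, and all genes 0.043 and 0.049.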

How the data were processed

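The values are the authors' deposited array signals, intensities in arbitrary units on a linear scale, made with MAS5 per the submitters' processing notes; array background steps beyond that are not given in the sources used here. Of 31099 probe sets, 20826 carry 1 gene symbol in the platform annotation, 436 several, 9780 none and 57 are controls. Signals were taken to log2 with no pseudocount. A probe set was kept if its signal exceeded the array's median on at least 5 arrays, and each gene was read from its probe set with the highest mean, leaving 10222 genes.

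Group means of all 30 arrays were fitted with limma 3.58.1 in R 4.3.3 (moderated variance with a trend, 24 residual degrees of freedom), and a gene was called at a Benjamini-Hochberg adjusted p under 0.05 over all genes tested, two-sided. Data were simulated for 100 uM against DMSO at 24 h over 10222 genes, with 100 genes changed 1.5-fold and 100 changed 2-fold. Of these, 75% and 96% were recovered, with 6 false calls. In the measured data far more genes were called (2029 higher and 1618 lower), and the members' median change of 1.30-fold was smaller than either size simulated. The recovery of such changes was not tested. Descriptions used Python 3.11.15, and promoter windows are from RefSeq on build GRCr8.

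Values in every array are given for up to 3 members per role with the smallest adjusted p at 100 uM; of other lists, up to 3 called genes per direction could be named. The members and lists were chosen with earlier results of these data known. Alternatives covered normalization, filter, pseudocount, probe set choice, variance model, array weights, array runs of 6, the actin ratio, stricter thresholds and leaving out each array.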

Additional observations from a re-analysis of the deposited data

Results flagged for a closer look

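In 13 of the 222 member and group combinations (5.86%) 1 array stood apart from the other 4 by Dixon's 95% test, which by chance marks about 1 in 20. At 100 uM and 48 h, replicate 3 was high in Polr1c (5504) and in Rrn3 (4303, the others 3191 to 3389), replicate 1 was high in Pes1 (4075, the others 2463 to 2832) and replicate 2 low in Fbl (10922). At 100 uM and 24 h, replicate 3 was high in Rrp9 (2722, the others 1855 to 2104) and replicate 1 in Tsr1 (7928). At 3 uM and 24 h, replicate 5 was low in Utp4 (4208, the others 4952 to 5170) and in Rrs1 (4315), replicate 4 was high in Emg1 (2928) and replicate 2 in Rrp1 (3578). At 3 uM and 48 h replicate 2 was low in Polr1a (866). On the DMSO arrays at 48 h, replicate 4 was high in Nop58 (10931) and replicate 3 in Utp15 (3945).

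A control probe set for 5S ribosomal RNA, outside the gene comparisons, was higher at 100 uM. What this probe set measures in labelled cRNA is not given in the sources used here. Its signal was 647 ± 77.8 on DMSO, 622 ± 98.9 at 3 uM and 1189 ± 155 at 100 uM after 24 h (SD, n = 5; 1.83-fold at 100 uM), and 715 ± 112, 824 ± 119 and 1254 ± 70.1 after 48 h (1.77-fold). All 5 arrays at 100 uM were above all 5 DMSO arrays at both times, which held for 14.5% of all genes at 24 h and 15.8% at 48 h. The two-sided exact permutation p was 0.00794 each, the smallest that 252 regroupings can give.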

How the results depend on the processing

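In all, 9176 member fold changes were recomputed under the alternatives. A change of sign was counted only for members called in the reported or the alternative fit, and 0 were found. Some alternatives, such as the stricter thresholds and the fit with no variance trend, leave the fold change itself as it was. In those the sign could not change. At 100 uM against DMSO, 23 of the 29 calls at 24 h and 15 of the 25 at 48 h held under every alternative except the 2 stricter thresholds. Leaving out 1 array at a time left 27 to 30 members called higher at 24 h and 22 to 25 at 48 h. Of all genes 17.7% to 18.9% and 17.0% to 17.8% were then called higher.

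Centring arrays on their medians gave 16 members higher at 100 uM and 48 h (12.2% of all genes) and 12 higher against 3 uM at 48 h (11.2%). It gave 0 lower at 3 uM and 24 h (23 of all genes) and 1 lower between the DMSO groups (116 of all genes). Between the DMSO groups 1 member was also lower with no filter, with no variance trend, with array runs of 6 as a block, with the groups compared alone, and at adjusted p under 0.01. In those settings 109 to 217 of all genes tested were lower. Array weights gave 17 members higher and 4 lower at 3 uM and 24 h, where 1597 (15.6%) of all genes were called higher and 1292 lower. They gave 1 lower for 100 uM against 3 uM at 24 h (2419 of all genes). For the change of the 3 uM effect they gave 5 higher and 11 lower (780 and 836 of all genes). Fitting the groups compared alone gave 0 and 0 at 3 uM and 24 h and 0 at 48 h. Over all genes that fit called 0 and 0 at 24 h, and 0 higher and 4 lower at 48 h. The actin covariate, and replicates 4 and 5 alone, each gave 0 and 0 at 3 uM and 24 h, where over all genes they called 0 higher, and 1 and 4 lower. At adjusted p under 0.01 there were 1 higher and 0 lower at 3 uM and 24 h (41 and 13 of all genes). At that threshold 14 were higher at 100 uM against 3 uM at 48 h (10.3% of all genes). Requiring 1.5-fold left 5 and 3 members at 100 uM (24 h and 48 h), 0 and 0 at 3 uM and 24 h, 1 and 1 against 3 uM, and 0 between the DMSO groups. Of all genes 3.87% and 3.39% were then higher at 100 uM, 0.127% at 3 uM and 24 h, and 3.58% and 2.43% against 3 uM. Between the DMSO groups 57 of all genes were then higher and 47 lower. Leaving out arrays gave 0 to 13 members called higher at 3 uM and 24 h (0.313% to 9.23% of all genes). It gave 1 to 2 members lower between the DMSO groups, where 147 to 188 of all genes were lower. For the change of the 3 uM effect it gave 0 to 2 members in each direction, where 0 to 49 of all genes were higher and 0 to 104 lower. The causes were not tested.

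The labels number no replicates, so wells could not be paired by number. Runs of 6 array numbers, each with 1 array of every group, were fitted as a block. That fit gave 29 and 24 members higher at 100 uM (24 h and 48 h), against 19.7% and 18.6% of all genes. With 5 arrays a group, precision is limited by the number of arrays. The arrays were scaled to 1 trimmed mean, so shifts of all RNA are not seen.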

Other observations

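Npm1, nucleophosmin, a nucleolar chaperone of the ribosomal proteins, was read outside the gene fit because its 3 probe sets are also annotated to a pseudogene, so their signals cannot be assigned to 1 gene. Against DMSO at 100 uM they were 1.54-, 1.23- and 1.30-fold higher at 24 h and 1.24-, 1.14- and 1.25-fold at 48 h. Each of these 6 differences had a two-sided exact permutation p of 0.00794 (5 arrays against 5), the smallest that 252 regroupings can give, before any adjustment. In each, all 5 treated arrays lay above all 5 DMSO arrays, which held for 14.5% of all genes at 24 h and 15.8% at 48 h.

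Members stood above the middle of the genes tested in signal: the median member was above 65.6% of all genes, and the median coefficient of variation within a group was 8.84% for members and 10.8% for all genes. At 3 uM and 24 h, limma called 0 of the 41 cytosolic ribosomal protein genes tested, from a list of 79. An unadjusted limma p under 0.05 was found for 9 of the 41, near the share of all genes (2256 of 10222). All 41 had a fold change below 0 (median -0.12), while the median of the 37 members was 0.11. This direction rested on replicates 1 to 3: over those arrays 40 of the 41 were below DMSO (median -0.28), and over replicates 4 and 5 only 4 of the 41 were (median 0.13). The actin 3′ to 5′ ratio was high on replicates 1 to 3, and its part was not tested.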
